A study of Mus musculus with 5 samples.

Results

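The p53 pathway was followed in mouse KLS cells, a sorted c-Kit+ Lin- Sca-1+ fraction of bone marrow that contains blood stem cells and multipotent progenitors, after loss of the Rb family. The group comprised Trp53, its relative Trp73, the regulators Mdm2, Mdm4 and Ppm1d, and 26 other genes. Most of the 26 are established p53 targets, and they act in growth arrest and stress, in cell death or in DNA repair. Members of the group were the probe sets of Affymetrix arrays that the platform annotation lists with 1 of 31 gene symbols and no other: 59 of 45037 probe sets, for 30 of the 31 genes. No probe set was listed with Trp53 as its sole symbol, so its own RNA level is not analysed here, and the data speak of its family, regulators and targets. Wild type arrays, named so by the study, came from mice that were Rb +/+, p130 +/+ and p107+/- (2 arrays), and deficient arrays from mice that were Rb -/-, p130 -/- and p107-/- (3 arrays). In both groups recombination was activated at 6 weeks of age in an Mx1-Cre inducible system, in which the recombinase is driven by an interferon-responsive promoter that is also active outside blood cells, and KLS cells were sorted 2 months later with no further treatment. Of 6 hybridisations the study left out 1. Nothing in the labels ties an array to its own animal or to a pool, so p-values measure the spread between these arrays, which may be partly technical, and having 5 arrays limits the precision.

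p53 is a transcription factor that is kept scarce by the ubiquitin ligase MDM2 and held inactive by its relative MDM4. DNA damage, oncogenic signals or loss of RB control over E2F factors can release it, the last through the ARF protein, which blocks MDM2. Its targets halt the cell cycle, repair DNA, trigger apoptosis or, as Mdm2 does, switch p53 off again; in blood stem cells p53 is known for holding cells in quiescence and for removing damaged ones. The mRNA of p53 targets is often read as a record of p53 activity, although most of these genes also answer to other signals.

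Of the whole group, 1 gene passed the threshold, and it was lower. Levels below are log2 RMA intensities of the brightest probe set of a gene unless another is named, given as mean ± SD over 2 wild type or 3 deficient arrays, and differences are deficient minus wild type on that log2 scale. In limma's test of all probe sets, with Benjamini-Hochberg adjustment and a threshold of 0.05, 0 of 59 member probe sets were called, against 0.164% called higher and 0.326% called lower among all 45037. At an unadjusted level of 0.05, 2 member probe sets were higher and 10 lower, where 7.28% and 6.82% of all probe sets were. With 1 probe set per gene (the brightest), 0 of 30 members were called higher and 1 lower, against 0.830% and 1.41% of all 18193 genes; at the unadjusted level 2 were higher (6.67%) and 7 lower (23.3%), against 8.79% and 9.86% of all genes. The median difference over the 30 genes was -0.07, beside -0.01 over all genes. On 5 members (16.7%) every deficient array lay above both wild type arrays and on 9 (30%) below both, against 16.5% and 18.6% of all genes. The lower side therefore held more members than its share of all genes and the higher side about that share, and these shares were not tested. Member genes had medians of 7.24 to 7.34 on the arrays, beside 4.71 to 4.74 over all probe sets. No share matched for brightness was computed.

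**Figure D1:**
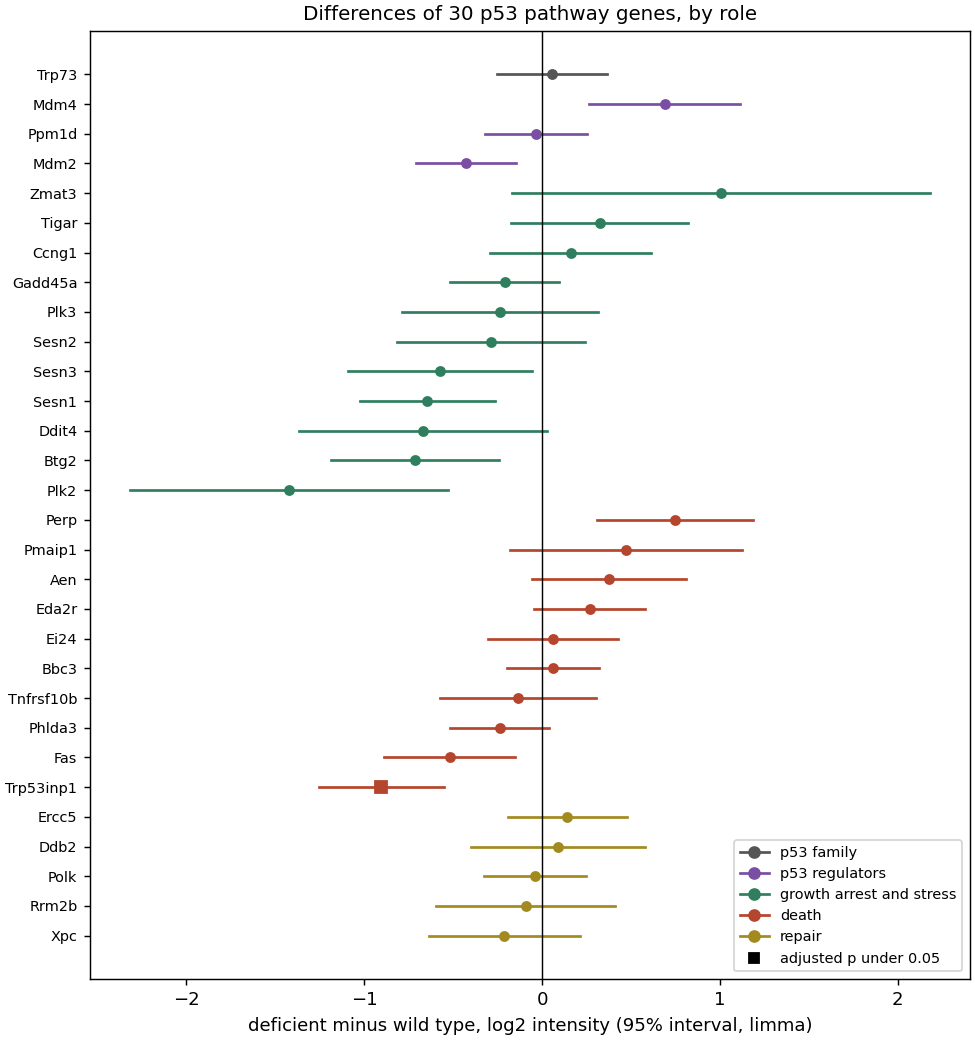
Differences of the 30 measured genes, deficient minus wild type in log2 intensity, with 95% intervals from the limma fit over all probe sets, coloured and grouped by role. The square marks Trp53inp1 (-0.90), the single member called by limma when each gene is read by 1 probe set; intervals of the 5 repair genes all cross 0.

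Of 8 measured genes that mark KLS or stem cells, 2 had nearly level means and 6 lower means in deficient cells (median difference -0.33). Kit, a gene of the sort itself, read 10.95 ± 0.18 in wild type and 11.02 ± 0.21 in deficient cells, and Cd34 11.95 ± 0.12 and 11.98 ± 0.25. Procr, a surface marker of stem cells, was called lower (10.49 ± 0.31 and 8.87 ± 0.31; limma, adjusted p = 0.0305 with 1 probe set per gene), Mecom differed by -1.19 without passing (adjusted p = 0.129), and Hlf, Slamf1, Flt3 and Meis1 by -0.50 to -0.16. The part of a changed mix within the KLS population in the differences below was not tested, and Ly6a, the gene of Sca-1, has no probe set named here. Rbl1, the gene of p107, read 7.75 ± 0.83 and 4.71 ± 0.45. Rb1 (8.74 ± 0.13 and 8.39 ± 0.58) and Rbl2 (8.31 ± 0.44 and 7.84 ± 0.27) did not pass, and where their probes lie relative to the deleted exons is not given in the sources used here. Genes of several mature cell types moved with the groups. Of 10 measured neutrophil markers 9 were called lower, and their summed intensity ran from 49628 to 60664 on wild type and from 1331 to 2348 on deficient arrays; the sum over 10 B and plasma cell markers ran from 15958 to 28980 and from 1193 to 1296, and that over 8 monocyte, macrophage and dendritic cell markers from 10677 to 12063 and from 3345 to 3677. Of 9 T and NK cell markers 2 were called lower (median difference -1.02), and all but Nkg7 and Cd4 had lower means. Their sums overlapped (1708 to 2535 on wild type, 2419 to 3048 on deficient arrays), but most of each sum was Nkg7, which was higher on every deficient array (difference 0.63). Of 5 erythroid markers 0 were called, and their sums ran from 2986 to 4315 on wild type and from 602 to 5227 on deficient arrays. Of 4 megakaryocyte markers Itga2b was called higher (difference 1.19; limma, adjusted p = 0.0219) while the other 3 had lower means. Of 14 mitosis genes 8 were called higher and 0 lower. In such bulk RNA, fewer cells of a type and less RNA per cell cannot be told apart, and the part of these other cells in the differences below was not tested. Of the 30 members, 5 had a mean below the array medians of 4.71 to 4.74 (Trp73, Fas, Eda2r, Pmaip1 and Tnfrsf10b), where RMA compresses differences.

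RefSeq promoter windows (GRCm38.p6, 250 bases before to 50 after a start) were at hand for 23 of the 31 genes. Those without one were Trp53inp1, Perp, Pmaip1, Tnfrsf10b, Zmat3, Xpc, Ddb2 and Rrm2b. Of the repair genes this left Ercc5 and Polk. A p53 decamer, the unit of which a full p53 site holds a tandem pair, was searched by name with no mismatch; it reads alike on both strands. It lay in the window of 9 of the 23 genes (39.1%), against 9.55% of 27025 genes with a window, and a tandem pair with a spacer of up to 13 bases in 0 of them, against 0.0740%. A pair with any mismatch, or a site outside the window, would not be found, so the 0 does not show that full sites are absent. The E2F letters TTTCCCGC, TTTCGCGC, TTTGCCGC and TTTGGCGC, searched on both strands, lay in 0 of the 23, against 2.6% of all genes. The decamer genes were Trp53, Mdm2, Ppm1d, Ccng1, Gadd45a, Sesn1, Aen, Ei24 and Polk, the last being the only repair gene among them. Of the 8 measured among them 3 had a higher and 5 a lower mean (median difference -0.04, range -0.64 to 0.38), and of the 14 measured genes whose window held none 6 and 8 (median -0.24, range -1.42 to 0.69). A match is a run of letters, not a shown binding site. The stretches around the decamer (in capitals) of 6 genes described below are shown 5′ to 3′ on the gene's strand, all upstream of the start, so that 2 regulators, 3 arrest genes and 1 death gene can be compared.
Mdm2 (chr10:117710910-117710969, minus strand, decamer from -186 to -177): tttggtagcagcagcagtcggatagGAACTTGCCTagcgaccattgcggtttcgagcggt
Ppm1d (chr11:85311097-85311156, plus strand, decamer from -132 to -123): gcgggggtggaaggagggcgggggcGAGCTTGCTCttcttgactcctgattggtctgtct
Sesn1 (chr10:41887241-41887300, plus strand, decamer from -173 to -164): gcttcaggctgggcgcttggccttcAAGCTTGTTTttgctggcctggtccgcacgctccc
Ccng1 (chr11:40755437-40755496, minus strand, decamer from -185 to -176): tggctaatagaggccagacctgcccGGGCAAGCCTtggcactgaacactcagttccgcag
Gadd45a (chr6:67037413-67037472, minus strand, decamer from -40 to -31): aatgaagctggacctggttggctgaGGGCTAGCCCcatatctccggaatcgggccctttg
Aen (chr7:78895912-78895971, plus strand, decamer from -121 to -112): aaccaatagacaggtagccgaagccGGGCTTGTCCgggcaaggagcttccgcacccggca

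Among the regulators, Mdm2 read lower in deficient cells on all 3 of its probe sets, without passing the threshold. Mdm2 encodes the ligase that marks p53 for degradation and is itself a p53 target. Its brightest probe set (1423605_a_at) read 9.40 and 9.44 on the wild type arrays and 9.08, 9.04 and 8.87 on the deficient arrays. The groups did not overlap, and the difference was -0.43 (SE 0.11, 95% interval -0.71 to -0.15; limma, adjusted p = 0.126 with 1 probe set per gene). The next probe set (1427718_a_at) read 6.58 and 6.72 against 5.87, 5.80 and 6.32, a difference of -0.65 (SE 0.18; adjusted p = 0.186 over all probe sets). The dimmest lay below the array medians and differed by -0.16, again with no overlap.

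Mdm4, whose protein masks the activation domain of p53, gave opposite answers on its probe sets. The brightest (1460542_s_at) read 8.21 and 7.74 on wild type and 8.76, 8.52 and 8.71 on deficient arrays, so that every deficient array was the higher, by 0.69 on average (SE 0.17; limma, adjusted p = 0.109 with 1 probe set per gene), and by 0.45 without wild type 2. A second (1458223_at) read 5.46 and 5.57 against 5.17, 4.94 and 5.17, every deficient array the lower, with a difference of -0.43 (SE 0.12; adjusted p = 0.202 over all probe sets). The ending _s_at marks a set whose probes can match more than 1 transcript, and without such sets the Mdm4 value is the -0.43 of the second. The other 2 probe sets lay below the array medians and differed by 0.02 and -0.13. No direction of the gene as a whole can be given from these values.

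Ppm1d, the phosphatase gene whose product (WIP1) resets p53 signalling and which p53 induces, was level: 8.71 and 8.70 on wild type against 8.60, 8.60 and 8.81 on deficient arrays (difference -0.03, 95% interval -0.32 to 0.25; limma, adjusted p = 0.932). Its other probe set differed by 0.22 with no overlap. Trp73, the gene of p73 and a known E2F target, was dim: 4.64 and 4.47 against 4.61, 4.49 and 4.73 on the brighter probe set and below that on the other, with differences of 0.06 and -0.12. At that brightness little of a change would be seen.

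**Figure D2:**
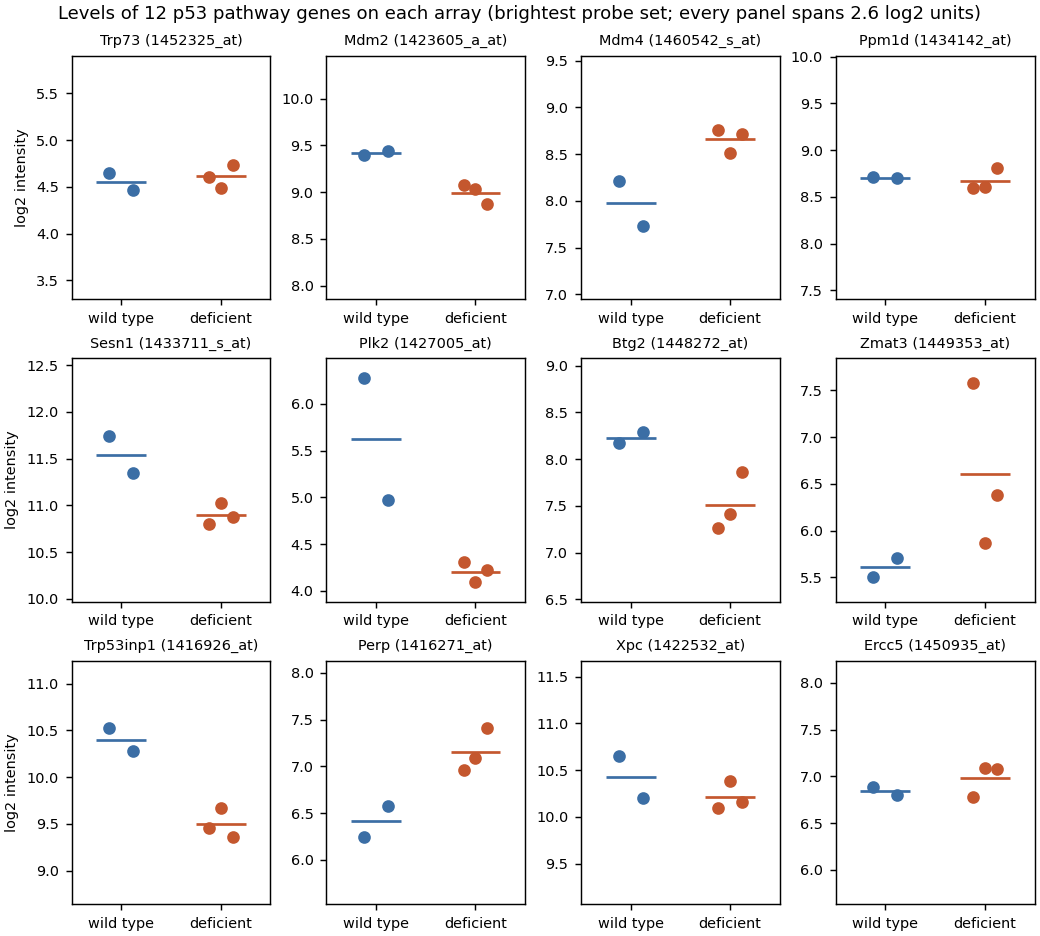
Log2 intensity of 12 members on each array, wild type (blue) and deficient (orange), with the group mean as a line; all panels span the same range. Trp53inp1, Sesn1, Mdm2, Btg2 and Plk2 sit lower on every deficient array, Mdm4, Perp and Zmat3 higher, and the groups overlap for Trp73, Ppm1d, Xpc and Ercc5.

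Growth arrest and stress genes leaned lower. Of 11 genes 8 had a lower mean in deficient cells, 5 of them with no overlap between groups, and 3 had a higher mean, 1 with no overlap. Among all genes 51.9% had a lower mean, and 18.6% did not overlap on the lower and 16.5% on the higher side. None of the 11 passed over all genes (limma), while 4 were lower and 0 higher at the unadjusted level, where 9.86% and 8.79% of all genes were. Sesn3, described below as induced by FOXO factors, is among the 11 and in each of these lower counts. The median difference was -0.29, and -0.58 without wild type 2. Of 20 immediate-early genes listed as a possible sign of cell handling, 10 were called lower and 0 higher, against 1.41% and 0.83% of all genes. Their median difference was -1.25, and their summed intensity ran from 25234 to 26078 on wild type and from 7665 to 9359 on deficient arrays. Several arrest targets, such as Btg2 and Plk2, are also known as early response genes, and the part of handling in their values was not tested.

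The sestrin genes had lower means, unevenly among the 3. Sestrins restrain mTORC1 and limit oxidative stress; p53 induces Sesn1 and Sesn2, and FOXO factors Sesn3. All 8 of their probe sets had a lower mean in deficient cells, with differences from -0.64 to -0.03, and on 4 of them the groups did not overlap. Of all probe sets 49.5% had a lower mean, and 15.2% lay lower and 15.4% higher without overlap; probe sets of 1 gene are not independent of each other. Sesn1 read 11.74 and 11.34 on wild type and 10.80, 11.02 and 10.87 on deficient arrays. Every deficient array was the lower, and the difference was -0.64 (SE 0.16, 95% interval -1.03 to -0.26; limma, adjusted p = 0.0999 with 1 probe set per gene). The probe set 1454699_at of the same gene read 9.56 and 9.31 against 8.86, 8.93 and 8.74 (difference -0.59, SE 0.13). Sesn3 read 8.83 and 8.20 against 7.85, 8.12 and 7.84, also without overlap, but its difference of -0.57 was -0.89 without wild type 2 and -0.26 without wild type 1, so the size rested on which wild type array was kept. Sesn2 read 6.38 and 5.81 against 6.02, 5.58 and 5.81; here the groups overlapped and the difference of -0.29 was not larger than the spread (adjusted p = 0.576). It was -0.58 without wild type 2 and -0.00142 without wild type 1, so that no lower level was left on this probe set without wild type 1. The other Sesn2 probe set (1425139_at) read 5.83 and 5.39 against 5.30, 4.98 and 5.47, a difference of -0.36 with overlap.

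Plk2, a polo-like kinase gene induced by p53 and by mitogens, had the largest difference of the members, -1.42 (SE 0.36; limma, adjusted p = 0.109 with 1 probe set per gene). It read 6.28 and 4.97 on wild type and 4.31, 4.09 and 4.22 on deficient arrays. The deficient arrays lay close together and the wild type arrays far apart, so the size turned on wild type 1: the difference was -0.77 without it and -2.08, past the threshold (adjusted p = 0.0209), without wild type 2. The deficient arrays lay below the array medians, and a second, dimmer probe set differed by 0.29. Btg2, an antiproliferative gene and early response gene, read 8.17 and 8.29 against 7.27, 7.41 and 7.86, a difference of -0.71 (SE 0.19, adjusted p = 0.123) with no overlap, beside -0.20 on its other probe set.

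The remaining arrest and stress genes were smaller or less even. Ddit4, which encodes the mTORC1 inhibitor REDD1, differed by -0.67, with overlapping groups (8.25 and 7.73 against 7.35, 7.74 and 6.88); it was -0.41 without wild type 1. Gadd45a, which links damage to arrest and repair, differed by -0.21. Its groups did not overlap but nearly met (5.97 and 6.06 against 5.68, 5.96 and 5.78). Plk3 differed by -0.24 with overlap. Tigar, a regulator of glycolysis, had a higher mean on all 3 probe sets (0.32 to 0.58), but in each the gap lay between wild type 1 and the other arrays: the brightest read 5.33 on wild type 1, 5.99 on wild type 2 and 5.91 to 6.04 on the deficient arrays. Without wild type 1 its difference was -0.01. Ccng1, the cyclin G1 gene and one of the most regular p53 targets, differed by 0.16 (95% interval -0.29 to 0.61; adjusted p = 0.748), and its other probe sets by -0.06 and -0.19. Zmat3, an RNA-binding protein gene of the p53 response, had the largest higher mean, 1.00, with every deficient array above both wild type arrays (5.50 and 5.71 against 7.58, 5.87 and 6.38). The deficient arrays differed among themselves by more than the groups did, so the value did not pass (SE 0.48, adjusted p = 0.337), and without deficient 1 it was 0.52.

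**Figure D3:**
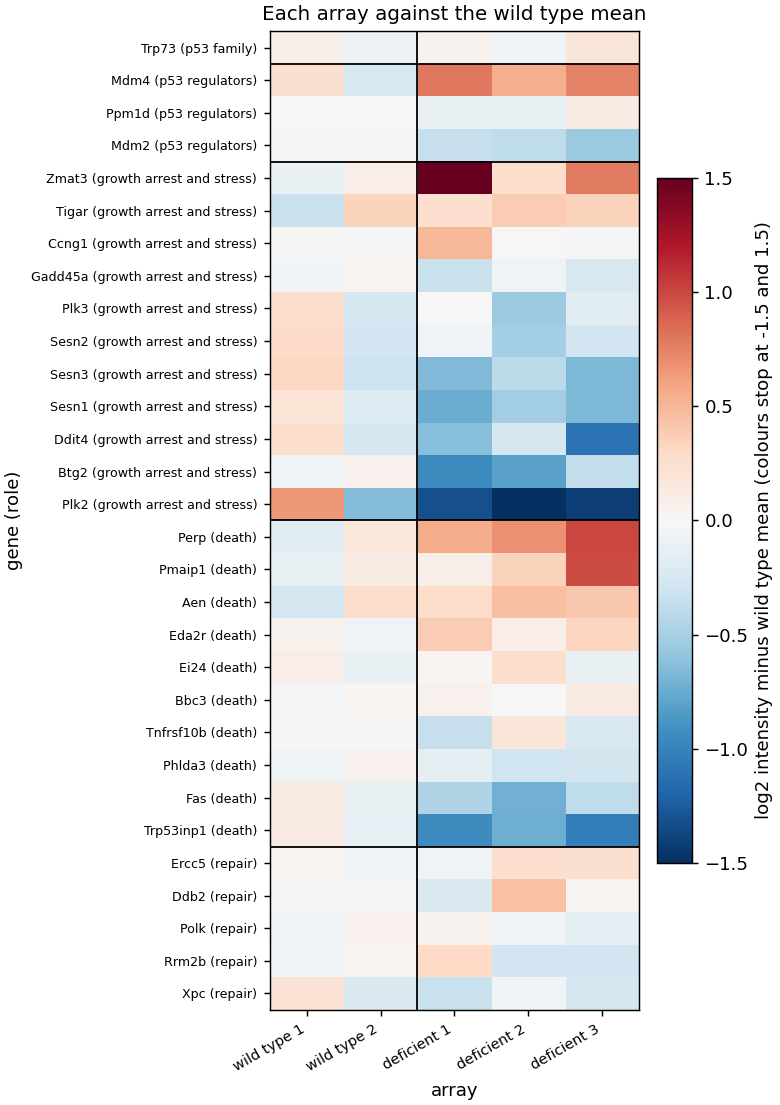
Each member on each array as log2 intensity minus the wild type mean of that gene, grouped by role, with white at 0; colours stop at 1.5 in either direction, and Zmat3 on deficient 1 (7.58 against a wild type mean of 5.61) and Plk2 on deficient 2 (4.09 against 5.63) are the cells at or past that limit. The sestrins, Ddit4, Btg2 and Plk2 are below the wild type mean on all 3 deficient arrays.

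Death targets went both ways. Of 10 genes 6 had a higher and 4 a lower mean, 3 on each side without overlap (30% each, against 16.5% of all genes higher and 18.6% lower), and the median difference was 0.06. One was called. Trp53inp1, a stress gene whose product promotes p53-dependent death and autophagy, fell: it read 10.52 and 10.28 on wild type and 9.46, 9.67 and 9.37 on deficient arrays. Every deficient array lay below both wild type arrays. The difference was -0.90 (SE 0.14, 95% interval -1.26 to -0.55), a level 0.535 times that of wild type; it passed with 1 probe set per gene (limma, adjusted p = 0.0415) and not over all probe sets (adjusted p = 0.0699). It kept its direction but missed the threshold when any 1 array was left out (-1.02 to -0.78, 0 of 5 fits past it). The other probe set of the gene (1416927_at) lay below the array medians on all arrays and differed by -0.05, so the call rests on 1 probe set.

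Perp, a desmosome and apoptosis gene that p53 and p63 induce, stood on the other side. It read 6.25 and 6.58 on wild type and 6.97, 7.09 and 7.41 on deficient arrays, with no overlap and a difference of 0.75 (SE 0.18, 95% interval 0.31 to 1.18), which did not pass (limma, adjusted p = 0.0974 with 1 probe set per gene). Aen, a p53-induced nuclease gene of apoptosis, had a higher mean on all 4 probe sets (0.18 to 0.45), 2 of them without overlap; the brightest read 9.08 and 9.61 against 9.62, 9.79 and 9.76, and its difference of 0.38 (adjusted p = 0.336) was 0.11 without wild type 1. Of the BH3-only genes, Bbc3, which encodes PUMA, was level at 7.53 and 7.60 against 7.63, 7.56 and 7.70 (difference 0.06, 95% interval -0.20 to 0.32; adjusted p = 0.850). Pmaip1, which encodes NOXA, was dim at 3.89 and 4.11 against 4.09, 4.35 and 4.98, and its difference of 0.47 was 0.22 without deficient 3.

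The death receptor genes were all below the array medians. Fas read 4.24 and 4.01 against 3.67, 3.40 and 3.74, without overlap (difference -0.52, SE 0.15; limma, adjusted p = 0.140 with 1 probe set per gene). Eda2r, a p53-induced receptor gene of the TNF family, differed by 0.27 without overlap, and Tnfrsf10b, the mouse TRAIL receptor gene, by -0.13 and 0.06 on its 2 probe sets. Phlda3, which restrains AKT, differed by -0.24 without overlap, and Ei24, an endoplasmic reticulum and autophagy gene, by 0.06 with overlap (10.82 and 10.63 against 10.76, 10.99 and 10.61).

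Repair targets had the narrowest range of differences of the arrest, death and repair roles, from -0.21 to 0.14. They were also the fewest, 5 genes against 11 arrest and 10 death genes, and a range tends to narrow with fewer genes. In none of the 5 genes did the groups separate, where 16.5% of all genes did on the higher and 18.6% on the lower side. None passed at the unadjusted level, where 8.79% and 9.86% of all genes did. With 5 genes, counts of 0 do not set the role apart from these shares. The groups also overlapped on all 11 probe sets, which are not independent and of which 5 lay below the array medians. Xpc and Ddb2 recognise ultraviolet damage for nucleotide excision repair and Ercc5 cuts the damaged strand; Polk is a translesion polymerase and Rrm2b the p53-induced subunit of ribonucleotide reductase. Xpc read 10.65 and 10.21 on wild type and 10.09, 10.39 and 10.16 on deficient arrays (difference -0.21, 95% interval -0.64 to 0.21; limma, adjusted p = 0.616). Ercc5 read 6.88 and 6.80 against 6.78, 7.09 and 7.08 (difference 0.14, 95% interval -0.19 to 0.48; adjusted p = 0.689). The intervals of Ddb2 (-0.40 to 0.58), Polk (-0.33 to 0.24) and Rrm2b (-0.60 to 0.41) also crossed 0, and they leave room for changes of that size in either direction. Whether the arrest, death and repair roles differed from each other was not tested.

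**Figure D4:**
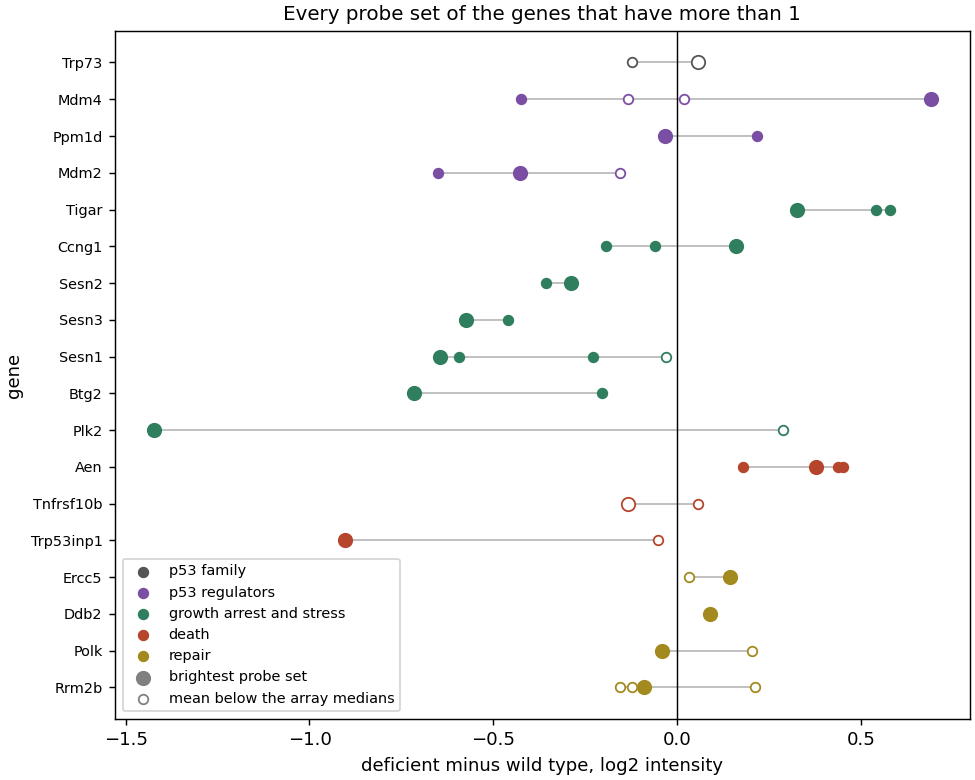
Difference, deficient minus wild type in log2 intensity, for every probe set of the 18 members with more than 1; the large symbol is the brightest set and open symbols have a mean below the array medians. All 8 sestrin, 3 Mdm2, 4 Aen and 3 Tigar sets keep a single sign, and the Mdm4 sets range from -0.43 to 0.69.

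Other genes of the pathway came from a list of 75, of which 60 could be named. Of these 1 was called higher and 1 lower (median difference 0.04), against 0.83% and 1.41% of all genes. At the unadjusted level 16 of the 60 were higher and 11 lower, against 8.79% and 9.86% of all genes. The counts below stand beside the same shares. Hipk2, a kinase gene whose product phosphorylates p53 on its death-related serine, rose from 8.25 and 7.96 to 9.77, 9.74 and 9.57 (difference 1.59, SE 0.14; limma, adjusted p = 0.00841 with 1 probe set per gene). On 5 of its 8 probe sets every deficient array was the higher, and over all 8 the differences ran from 0.08 to 1.59. All 7 kinase genes upstream of p53 had a higher mean (median 0.57), where 8747 of all 18193 genes did. Mapk14 among them was level, at 0.04 with overlapping groups. At the unadjusted level 5 were higher, among them the checkpoint kinase gene Chek2 (difference 0.61; limma, adjusted p = 0.0744). Cdkn1a, the gene of the CDK inhibitor p21 and the main arrest target of p53, read 9.86 and 10.20 on wild type against 9.003, 9.24 and 8.84 on deficient arrays and fell by 1.00 (SE 0.17; limma, adjusted p = 0.0458 with 1 probe set per gene, 0.0779 over all probe sets), with both probe sets lower and no overlap; it passed in 0 of the 5 fits with 1 array left out. Of 16 modifiers and cofactors 0 were called (4 higher and 1 lower at the unadjusted level), with the acetyltransferase gene Crebbp at 0.76 (adjusted p = 0.0908) and Nucks1 at 0.57 (adjusted p = 0.0944). Cdkn2a, the gene that encodes ARF, was among the 16 and differed by -0.03. It lay below the array medians, where little of a change would be seen. Of 19 other arrest targets limma called Cdkn1a alone, with 3 higher and 7 lower at the unadjusted level. Beside Cdkn1a, the lower ones included Tob1 (-1.19), Trp53i11 (-0.68), Cd82 (-0.58), Rprm (-0.45) and Ccng2 (-0.35). The 3 higher were Ckap2 (0.68), Cdc25c (0.53) and Gtse1 (0.48). The list does not separate targets that p53 induces from those it represses, so these 3 do not show arrest-inducing genes rising. Of 11 other death targets and 7 other repair targets it called 0, with 2 and 2 higher and 2 and 1 lower at that level. Mgmt, which removes alkyl groups from guanine, had the smallest adjusted p of those (0.0616, difference -0.56).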

How the data were processed

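Total RNA from sorted KLS cells was extracted with Trizol, labelled with biotin and hybridised to Affymetrix arrays, per the labels' protocols. The authors deposited intensity values made with RMA, per the submitters' processing notes (version not given in the sources used here). RMA sets all arrays to a similar distribution, so a shift of all transcripts would not be seen. Values ran from 6.96 to 31249 and were taken as linear; log2 was computed here. All 5 columns were matched (0 others), array correlations ran from 0.979 to 0.993, and 64 AFFX control probe sets were left out. The platform annotation gave 34945 probe sets 1 symbol, 932 several and 9160 none.

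Deficient and wild type arrays were compared by linear models without covariates (R 4.3.3; limma 3.58.1; two-sided moderated tests), with Benjamini-Hochberg adjustment over all 45037 probe sets, and again over 18193 genes by their brightest probe set. The fit was tested on simulated data. Members, roles and lists were chosen with earlier results of these data known. Named were all 31 members, with values per array for called genes, regulators and the 2 smallest p-values of each other role, and pathway genes that passed or had the smallest p. Other per-array values were chosen after they were seen. Further pathway genes, such as Mapk14, Cdkn2a and some arrest targets, were also named after their values were seen. Alternatives were other normalizations, filters, variance priors, array weights, probe set summaries and thresholds, a replicate block, and each array left out.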

Additional observations from a re-analysis of the deposited data

How the results depend on the processing

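Trp53inp1 kept its direction under every alternative run and stayed past the threshold in limma's test with 1 probe set per gene under other normalizations, filters, variance priors and array weights; with the mean of all probe sets, or with the replicate block, 0 member genes were called lower. At adjusted p under 0.1, 1 member gene was called higher, 2 lower and 1 probe set lower. With 1 array left out, 0 to 1 member probe sets and 0 to 1 member genes were called lower, the 1 being Plk2 without wild type 2. The list median over all members was -0.10 after quantile normalization and cyclic loess alike, -0.092 without dim probe sets, -0.036 with the mean of all probe sets and -0.060 to -0.00384 with 1 array left out. The death median was 0.047 after quantile normalization, 0.025 after cyclic loess, 0.077 after median centring, 0.050 with array weights and 0.029 to 0.087 with 1 array left out; the arrest median ran from -0.58 to -0.26 with 1 array left out. Without _x_at and _s_at sets the regulator median and Mdm4 were both -0.43 and Tnfrsf10b was 0.057. With the mean of all probe sets the repair median and Polk were 0.081, Trp73 -0.033, Ppm1d 0.092 and Ccng1 -0.031. Of the other pathway genes, 3 were called higher with an intensity trend, 0 lower after median centring and 0 lower with 1 array left out. With 1 array left out, differences not past the threshold spanned 0 for Trp73 (-0.032 to 0.15), Ppm1d (-0.10 to 0.00363), Ccng1 (-0.011 to 0.25), Plk3 (-0.50 to 0.024), Tigar (-0.00625 to 0.65), Ei24 (-0.039 to 0.16), Xpc (-0.43 to 0.00704), Ddb2 (-0.086 to 0.24), Polk (-0.11 to 0.029) and Rrm2b (-0.29 to 0.00623). The causes of these shifts were not tested.

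Same-numbered arrays did not deviate together (correlations of -0.0530 and -0.0180), so the numbers were not taken as pairs. With the replicate block, 0 other pathway genes were called higher and 0 lower, the median over all members was -0.042 and the death median 0.087, and Trp73 (-0.00387), Polk (0.00941) and Rrm2b (0.00595) changed sign. The block leaves deficient 3 without a partner.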

Other observations

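A few targets were uneven among the deficient arrays rather than between the groups; these genes were singled out after their values were seen. Deficient 1 read highest of the 5 arrays for Zmat3 (7.58, others 5.50 to 6.38), for the brightest probe set of Rrm2b (8.08, others 7.49 to 7.83) and for all 3 probe sets of Ccng1 (11.29, 8.22 and 7.83, others up to 10.81, 8.03 and 7.61). The remaining deficient arrays read 10.78 and 10.77 on the brightest Ccng1 set, level with wild type at 10.81 and 10.76. Ddb2 ran otherwise, with deficient 2 highest on both probe sets (8.87 and 8.39) and deficient 1 lowest (8.22 and 7.63), and Pmaip1 was highest on deficient 3. Deficient 1 also had the highest Rb1 level of the 5 arrays (8.93, against 7.77 and 8.46 on deficient 2 and 3) and the highest Rbl1 level of the deficient arrays (5.15, against 4.25 and 4.73). Rbl2 ran otherwise, with 8.07 on deficient 3, 7.90 on deficient 1 and 7.55 on deficient 2, and 8.62 on wild type 1. Erythroid genes split the same arrays more widely. Car1 read 11.88, 6.31 and 9.07 and Klf1 10.26, 8.53 and 9.09 on deficient 1, 2 and 3. Epor was also highest on deficient 1 (7.66), while the dim Alas2 and Hba-a1 were lowest there (4.03 and 3.86). Groups of 3 arrays are too small for a test of a single array, and whether these values are connected was not tested.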
